A study of Mus musculus with 10 samples.

Results

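The 40 genes described here encode the protein folding machinery of the endoplasmic reticulum (ER) and the unfolded protein response (UPR), the program by which a cell adjusts that machinery to its load. They were chosen by name from a list of ER chaperones, folding oxidases, degradation factors, stress sensors and stress targets, and each symbol was looked up in the count table of 56748 genes. All 40 members were found and all 40 were high enough to test among 14270 tested genes. RNA-seq had been performed on stromal vascular cells of inguinal fat from male mice of 6 to 8 weeks, differentiated into adipocytes in culture for 6 to 8 days. The control group (Fam20c-flox, n = 5 libraries) carried the floxed allele without Cre, and the Ad-Fam20c–KO group (Fam20c-flox with Adipoq-Cre, n = 5 libraries) carried the same floxed allele with Cre. Both groups had been through adipogenic differentiation. Adipoq-Cre is driven by the adiponectin promoter, so cells of the culture that had not become adipocytes should keep Fam20c. FAM20C is a kinase of the secretory pathway, and the comparison asks whether its loss in adipocytes moved the genes of ER folding and ER stress.

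Proteins bound for secretion or for membranes enter the ER through the translocon, receive N-glycans, are folded by chaperones such as BiP (Hspa5) and acquire disulfide bonds from protein disulfide isomerases that are reoxidized by ERO1 enzymes. Proteins that fail to fold are passed back to the cytosol and degraded, a route called ER-associated degradation (ERAD). When unfolded proteins accumulate, the sensors IRE1 (Ern1), PERK (Eif2ak3) and ATF6 signal to the nucleus: IRE1 splices Xbp1 mRNA, ATF6 is cut to release a transcription factor, and PERK phosphorylates eIF2α, which slows translation in general and raises translation of Atf4. ATF6 and XBP1 are known to raise chaperone and ERAD genes, and ATF4 with CHOP (Ddit3) is known to raise amino acid synthesis and stress genes. ATF4 also answers to amino acid supply, mitochondrial stress and growth signals through kinases other than PERK, so the chaperone and ATF4 sets can move apart. Adipocytes secrete adiponectin and other hormones through this route.

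The promoters of some members carry sequence elements by which these factors are known to act, and a few are shown. The members below are grouped by role, and by these elements in a single comparison only. RefSeq promoters (GRCm38.p6, from 250 bases before to 50 bases after each start) matched 35 of the 40 members. The ER stress element (ERSE) was searched as CCAAT, 9 bases of any kind and CCACG, ERSE-II as ATTGG, 1 base and CCACG, the UPR element (UPRE) as TGACGTGG, and the core of the amino acid response element (AARE) as TGATG, 1 base and AAT or AAC, all on both strands. ERSE was present in 10 members (28.6%) against 0.137% of 27025 genes with a promoter. ERSE-II was present in 3 members (8.57%) against 0.0444%, the AARE core in 3 members (8.57%) against 1.95%, and UPRE in 0 members against 0.714%. No match in a member overlapped another match. In the stretches below the capitals mark the matched parts, read 5′ to 3′ on the strand of the gene, where a match on the opposite strand appears as its reverse complement.
Hspa5 (chr2:34772020-34772048, plus strand, ERSE): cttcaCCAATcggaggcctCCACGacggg
Calr (chr8:84847067-84847101, minus strand, ERSE): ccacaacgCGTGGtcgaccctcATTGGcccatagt
Creld2 (chr15:88819512-88819546, plus strand, ERSE): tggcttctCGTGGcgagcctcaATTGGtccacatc
Pdia6 (chr12:17266483-17266517, plus strand, ERSE): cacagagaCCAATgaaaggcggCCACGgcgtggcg
Hsp90b1 (chr10:86705525-86705664, minus strand, ERSE at both ends): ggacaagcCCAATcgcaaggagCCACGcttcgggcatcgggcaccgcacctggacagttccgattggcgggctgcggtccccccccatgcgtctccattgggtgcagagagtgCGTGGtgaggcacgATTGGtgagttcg
Herpud1 (chr8:94386308-94386395, plus strand, AARE core then ERSE-II): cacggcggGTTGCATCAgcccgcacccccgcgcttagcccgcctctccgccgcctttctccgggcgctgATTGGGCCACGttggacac
Asns (chr6:7693216-7693240, minus strand, AARE core): cagccacaTGATGAAACttcccgca
Chac1 (chr2:119351040-119351064, plus strand, AARE core): tccctgccGTTGCATCActcctgcc
A match is a string of letters and was not tested for binding.

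The libraries held 18949106 to 26237825 counts in control and 19883101 to 23291792 counts in KO. Fam20c itself ranged from 8.86 to 11.9 CPM (counts relative to the effective library size) in control and from 6.65 to 7.74 CPM in KO, a log2 difference of -0.49 (standard error 0.0929, with an adjusted p of 0.0137 in the quasi-likelihood test of edgeR after Benjamini-Hochberg correction). The cultures carried adipocyte markers at 40040 to 41290 CPM in sum in control and 41970 to 44100 CPM in KO, and 0 of these 12 markers passed the limit with edgeR, 2 with DESeq2 and 4 had an unadjusted p under 0.05, all higher. Of 12 endothelial markers, 10 were lower in KO, and their sum was 162.9 to 198.7 CPM in control and 66.65 to 99.41 CPM in KO. Of 10 progenitor and fibroblast markers, 4 were lower, with sums of 4360 to 5788 CPM in control and 3532 to 4237 CPM in KO. Macrophage markers overlapped between the groups at 1499 to 2294 and 1310 to 2172 CPM, with 1 of 12 lower. Pericyte and smooth muscle markers summed to 164.1 to 202.2 and 139.5 to 172.7 CPM. Plasma cells and B cells, which hold much ER, were near absent: Ms4a1 and Mzb1 had no count in any library, and the markers of these cells together reached 1.775 to 3.143 CPM in control and 2.064 to 4.316 CPM in KO. In cultures of mixed cells, fewer cells of a type and less RNA per cell cannot be told apart, and the part of these marker shifts in the results below was not tested.

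Of the 40 members, only Atf4 passed an adjusted p limit of 0.05 as higher in KO, where 0.308% of all tested genes did so, and 0 members passed as lower, where 1.86% of all tested genes did. In either direction 2.17% of all tested genes passed. DESeq2 called Atf4 and Ppp1r15a as higher, where it called 0.876% of all tested genes higher and 2.52% lower, and limma voom with quality weights called Atf4, Ppp1r15a and Ero1a as higher, where it called 0.778% of all tested genes higher and 2.43% lower. At an unadjusted p under 0.05, 5 members were higher (12.5%, against 4.43% of all tested genes) and 0 were lower (against 7.46%). The 5 were Atf4, Ppp1r15a, Asns, Chac1 and Ero1a. Their libraries overlapped between the groups except for Atf4, and all KO libraries lay above all control libraries for 1.31% of tested genes. The median log2 fold change of the members was -0.0399, against -0.000847 over all tested genes, with 13 members above 0 and 27 below. By role, the median was 0.169 for 4 ATF4 and CHOP targets and 0.0607 for 6 sensors and transcription factors. It was -0.0591 for 9 lumenal chaperones, -0.0862 for 2 lectin chaperones, -0.0812 for 6 oxidative folding enzymes, -0.0333 for 7 ERAD factors, -0.0544 for 4 translocon genes and -0.135 for 2 nucleobindins.

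**Figure D1:**
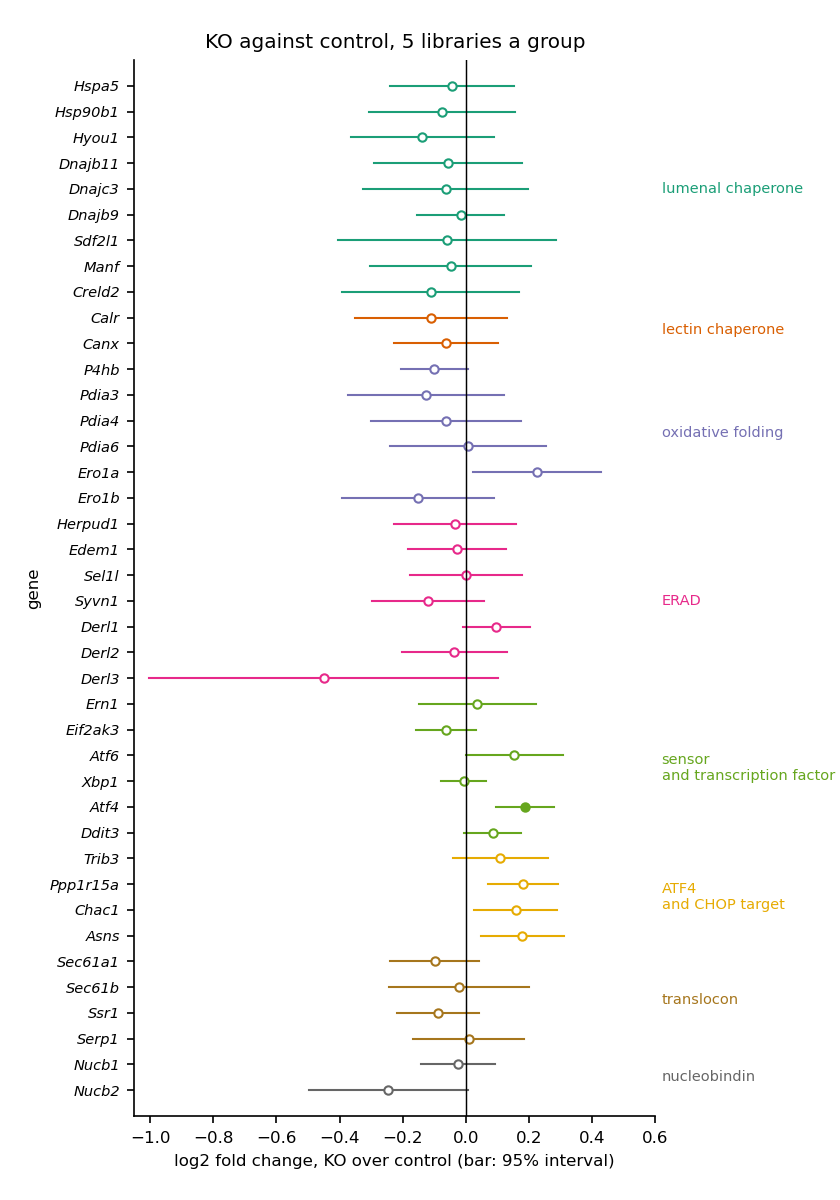
Log2 fold change of each of the 40 members, KO over control, on the horizontal axis, with its 95% interval from edgeR's fit and genes grouped and coloured by role. The only filled point, Atf4, passed the adjusted p limit of 0.05, and the intervals of 35 members include 0.

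Atf4 encodes the transcription factor at the end of the PERK branch and of the amino acid response. The gene (ENSMUSG00000042406.9) lies on chromosome 15, from 80255184 to 80257541 on the plus strand in GENCODE M21 on GRCm38, and shares no exon with another gene. Its level was 297.0, 317.3, 322.2, 342.6 and 330.7 CPM in the control cultures, in the order of libraries 1 to 5, and 369.4, 358.2, 379.7, 355.9 and 369.4 CPM in the KO cultures in the same order. The lowest KO library exceeded the highest control library. The means were 322.0 ± 16.9 CPM in control and 366.5 ± 9.65 CPM in KO (SD, n = 5 each). Atf4 rose by 0.19 on the log2 scale (standard error 0.0423, 95% interval 0.10 to 0.28, adjusted p = 0.0388). A 2-sided exact permutation test of the library values gave p = 0.00794, the smallest that 5 libraries against 5 allow. Groups that do not overlap always give this value, so it restates their separation. When single libraries were dropped, Atf4 stayed 0.16 to 0.21 higher on the log2 scale, but the adjusted p was under the limit in 1 of the 10 fits (0.0165 without control 4) and 0.0586 to 0.106 in the others. With no filter on low counts, which raised the number of genes tested to 27306, it was 0.0696.

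Ddit3 encodes CHOP, the partner of ATF4 in prolonged stress. It ran at 128.7, 139.0, 138.7, 127.3 and 132.9 CPM in control and 135.8, 134.9, 144.2, 146.6 and 145.5 CPM in KO, so the groups overlapped. The log2 fold change was 0.08 (95% interval -0.01 to 0.18, adjusted p = 0.465), and part of an exon overlaps Mars on the opposite strand, from which unstranded counting could not separate it. Xbp1, the transcript spliced by IRE1, was among the steadiest members at 339.2, 355.8, 354.4, 335.7 and 352.2 CPM in control and 349.7, 344.2, 342.1, 350.3 and 343.9 CPM in KO. Its KO libraries all fell inside the control range, and the log2 fold change was -0.01 with an interval of -0.08 to 0.07. Gene counts add the spliced and unspliced forms of Xbp1, and likewise miss translation of Atf4 and cleavage of ATF6. Among the sensors, Atf6 averaged 137.7 ± 12.2 CPM in control cultures and 153.1 ± 13.1 CPM in KO cultures (adjusted p = 0.425). The IRE1 gene Ern1 had 37.72 ± 5.42 and 38.70 ± 2.06 CPM (adjusted p = 0.936). The PERK gene Eif2ak3 had 40.04 ± 1.30 and 38.33 ± 1.56 CPM (adjusted p = 0.655).

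The 4 members grouped here as ATF4 and CHOP targets had positive log2 fold changes, from 0.11 to 0.18. Of these, 3 had an unadjusted p under 0.05, though 0 passed the adjusted limit with edgeR (1 with DESeq2). The grouping does not hold every member that these factors may raise. Ppp1r15a encodes GADD34, which directs dephosphorylation of eIF2α and ends the translational block. It measured 81.9, 85.8, 86.8, 97.1 and 87.2 CPM in control and 105.8, 97.2, 96.5, 94.2 and 103.6 CPM in KO (log2 fold change 0.18, standard error 0.0513, adjusted p = 0.115). Control 4 was the high control, and without it the difference was 0.22 with an adjusted p of 0.0218. Ppp1r15a passed in only this 1 of the 10 fits with a single library left out. The gene shares exon sequence with Tulp2 on the opposite strand. Asns, asparagine synthetase, measured 204.0, 214.2, 215.1, 196.7 and 205.9 CPM in control and 199.8, 232.8, 259.7, 245.5 and 235.1 CPM in KO (log2 fold change 0.18, standard error 0.0608, adjusted p = 0.212). All KO libraries but KO 1 exceeded every control library, and without KO 1 the difference was 0.23 with an adjusted p of 0.0205. Likewise, Asns passed in only that 1 of the 10 fits. Chac1, a glutathione-degrading enzyme, was low at 16.7, 17.3, 17.4, 19.6 and 17.0 CPM in control and 18.1, 19.6, 20.9, 19.5 and 19.9 CPM in KO (log2 fold change 0.16, standard error 0.0606, adjusted p = 0.287). Control 4 again lay inside the KO range. Trib3, a pseudokinase induced by CHOP, had 97.94 ± 8.4 and 105.7 ± 8.98 CPM (log2 fold change 0.11, 95% interval -0.04 to 0.26, adjusted p = 0.61). Asns and Chac1 are the members of this role whose promoters held the AARE core shown above. The promoter of Herpud1, grouped under ERAD, held it as well, and its log2 fold change was -0.03.

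**Figure D2:**
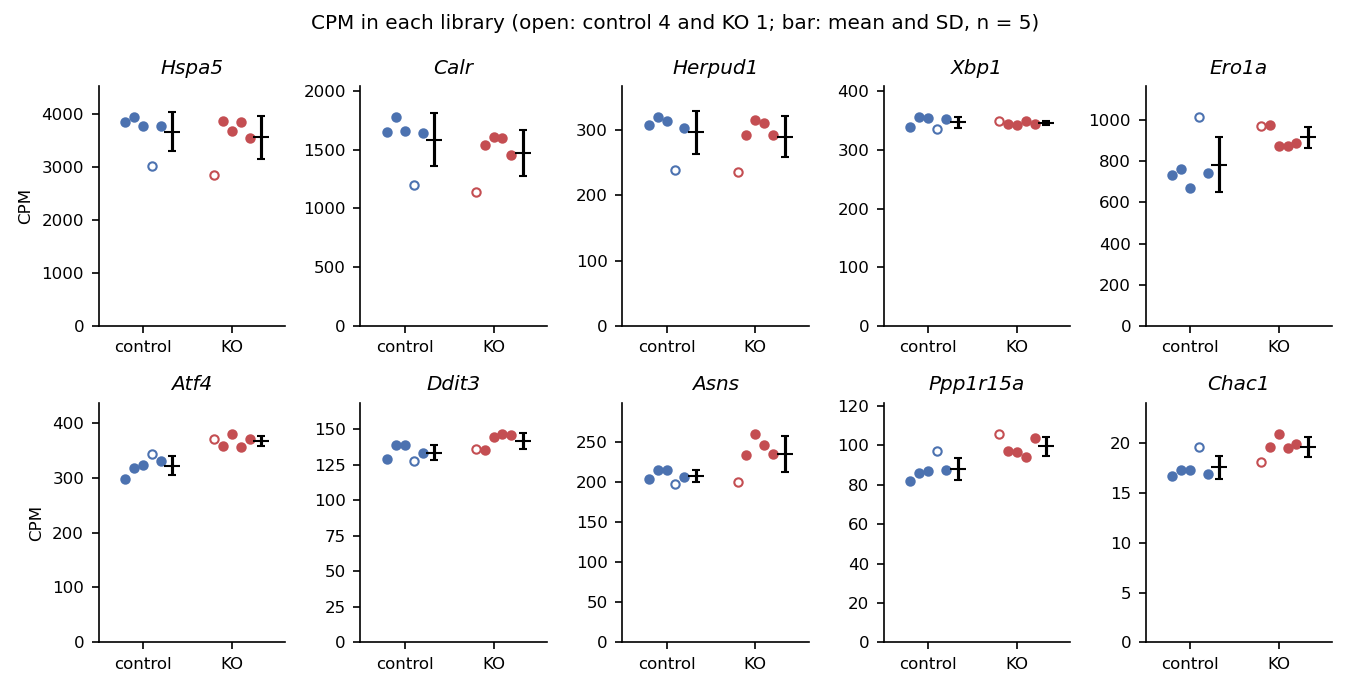
CPM of 10 members in each library (vertical axes start at 0), control on the left and KO on the right, with control 4 and KO 1 as open points and the mean and SD (n = 5) as bars. The open points sit lowest for Hspa5, Calr and Herpud1, and the KO points of Atf4 (355.9 to 379.7 CPM) lie above all control points.

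A further 36 genes known as targets of ATF4 or CHOP, which are not members, were all high enough to test. They were listed with earlier results of these data known. Of these, 31 had a log2 fold change above 0, the median was 0.145, and 18 were higher at an unadjusted p under 0.05 (50%, against 4.43% of all tested genes), while 0 were lower. At the adjusted limit edgeR called 1 of them higher, Mthfd2, where it called 0.308% of all tested genes. DESeq2 called 5 higher (Aldh18a1, Aldh1l2, Cebpg, Mthfd2 and Pck2, against 0.876%) and limma voom 6 (the same 5 and Shmt2, against 0.778%). Each of the 3 tools called 0 lower. Mthfd2, a mitochondrial enzyme of folate one-carbon metabolism, rose from 95.16 ± 2.47 to 121.9 ± 11.9 CPM (log2 fold change 0.36, standard error 0.0609, adjusted p = 0.00722), its groups did not overlap, and it passed with each library left out. Pck2, the mitochondrial phosphoenolpyruvate carboxykinase, had 134.0 ± 9.03 and 162.8 ± 15.3 CPM (log2 fold change 0.28, adjusted p = 0.0512). In 5 of the 36 (13.9%, against 1.31% of tested genes) all KO libraries exceeded all control libraries: Mthfd2, the ATF4 partner Cebpg, the seryl-tRNA synthetase gene Sars, the translation repressor gene Eif4ebp1 and the stress sensor gene Sesn2. With a single library left out, 6 of the 36 were called higher without KO 1, where 53 of 14406 tested genes were. The count was 3 without control 4, 2 without control 2 and 1 in each of the other single-library fits. Without both control 4 and KO 1, 8 were called higher, with a list median of 0.16, where 145 of 14340 tested genes were. That pair was left out after results of these data were known. Genes of one regulator share their libraries and are not independent, and these values describe this list only.

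**Figure D3:**
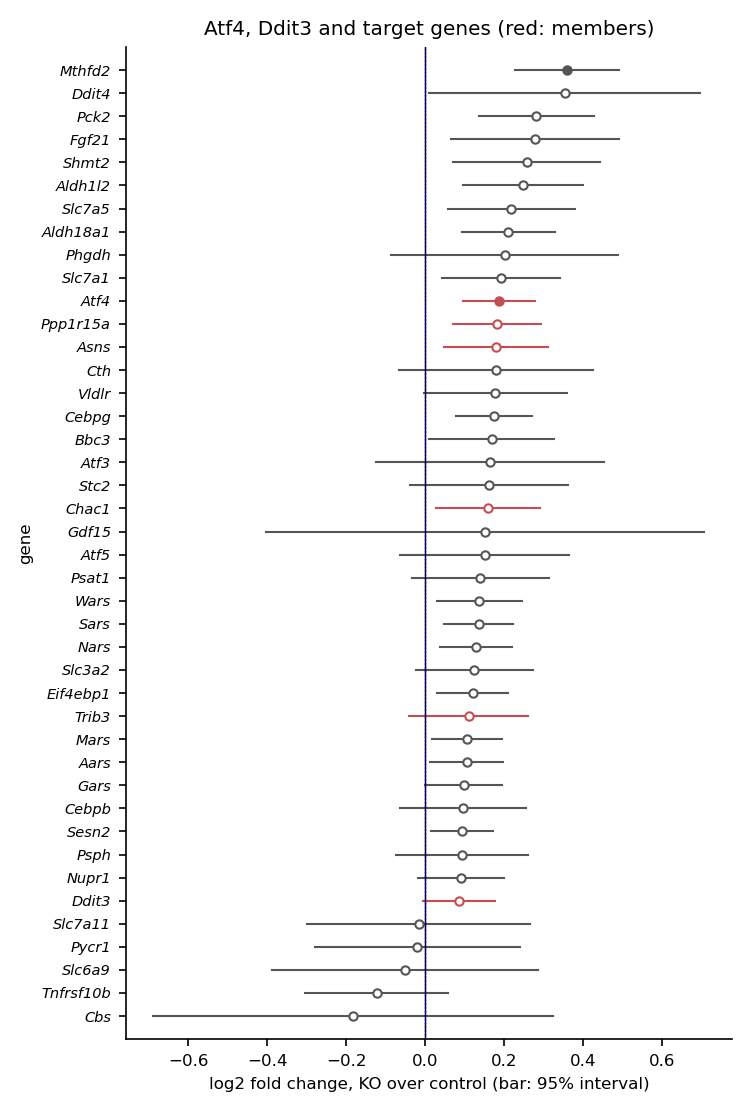
Log2 fold change, KO over control, with 95% intervals for Atf4, Ddit3, the 4 member targets (red) and 36 other ATF4 and CHOP targets (grey), sorted by size, with the median of all tested genes as a dotted line at about 0. Filled points are Atf4 and Mthfd2, which passed the adjusted limit, and 37 of the 42 points lie to the right of 0.

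The chaperones and folding enzymes showed a different pattern, a dip in 1 library of each group. Hspa5, the gene of the lumenal Hsp70 BiP and the standard read-out of ER stress, had 3847, 3942, 3771, 3015 and 3779.6 CPM in control and 2861, 3864, 3676, 3849 and 3556 CPM in KO. Control 4 and KO 1 stood below the rest and the other 8 libraries lay close together. The log2 fold change was -0.04 (standard error 0.0905, 95% interval -0.24 to 0.15, adjusted p = 0.925). Dnajb9, a BiP cochaperone that is a target of XBP1, had 248.0, 260.6, 243.3, 222.5 and 252.2 CPM in control and 207.2, 250.2, 257.6, 260.3 and 237.2 CPM in KO (log2 fold change -0.02, 95% interval -0.15 to 0.12). The same libraries were lowest for all 9 lumenal chaperones, which besides these are the Hsp90 Hsp90b1, the nucleotide exchange factor Hyou1, the cochaperones Dnajb11, Dnajc3 and Sdf2l1, and the stress-secreted Manf and Creld2. All 9 had log2 fold changes below 0, from -0.137 to -0.0166, with intervals that together ran from -0.405 to 0.286, and 0 passed with edgeR, DESeq2 or limma voom or had an unadjusted p under 0.05 with edgeR. Calr and Canx, the lectin chaperones that hold glycoproteins, had 1583 ± 224 and 676.6 ± 60.9 CPM in control cultures, against 1467 ± 195 and 647.9 ± 63.0 CPM in KO, again lowest in control 4 and KO 1.

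Over all members, control 4 was the lowest control and KO 1 the lowest KO for 29 of 40 (72.5%), against 12.4% of the tested genes. The lists of other genes of the organelle also showed this, at 63.6% for translocation, signal peptide and N-glycosylation, 59.1% for other ERAD genes, 42.4% for other ER chaperones and folding enzymes and 32% for other UPR regulators, as did other ATF4 and CHOP targets at 41.7%. For the 17 chaperones and oxidative folding enzymes, control 4 held a median of 72.9% of the mean of the other control libraries (range 60.6% to 139%), and KO 1 held 73.3% of the mean of the other KO libraries (range 60.8% to 108%). Over all tested genes both medians were 100%. ERAD members held medians of 81.6% and 80.1% and translocon members 80.8% and 84.0%, and the sensors and transcription factors 101% and 99.9%. The 4 ATF4 and CHOP targets among the members held 104% in control 4 and 87.1% in KO 1, and the 36 other targets 99.7% and 88%, with KO 1 the lowest KO library for 3 of the 4 and 23 of the 36. Control 4 and KO 1 were the lowest of their groups for 12 of the 13 members with an ERSE or ERSE-II match (92.3%). They were so for 13 of the 22 members with a promoter but neither match (59.1%), values given without a test. The roles differ between these sets. Over all folding, ERAD and translocon members, with a match or without, the count was 26 of 28 (92.9%). It was 0 of 6 for sensors and transcription factors and 2 of 4 for ATF4 and CHOP targets, where neither motif was found. Control 4 and KO 1 also had 14.2% and 14% of counts in their 10 highest genes, where the others ranged from 11.5% to 14%. Their mitochondrial counts were 5.09% and 4.70%, where the others ranged from 1.92% to 4.71%. Neither library was apart in total counts. The part of these features in the dip was not tested.

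The dip weighed on the medians according to which library was left out. Without KO 1 the median log2 fold change of the 17 chaperones and folding enzymes was 0.0247, and without control 4 it was -0.138. Without both it was -0.0544, close to the -0.0628 with all libraries. In that fit of 8 libraries, 5 of the 40 members passed as higher (Asns, Atf4, Chac1, Ero1a and Ppp1r15a) and 1 as lower (Nucb2). Among all 14340 tested genes, 145 were higher and 353 lower. At an unadjusted p under 0.05, 8 of the 40 members were then lower, a larger share than the 8.75% of all tested genes. They were Calr, Creld2, Derl3, Hyou1, Nucb2, P4hb, Pdia3 and Sec61a1. At the same limit 7 of the 40 were higher, also a larger share than the 6.88% of all tested genes. These were Asns, Atf4, Atf6, Chac1, Derl1, Ero1a and Ppp1r15a. Control 4 and KO 1 were left out after they were seen to be extreme for these same members. Leaving them out narrows the spread of members such as Hspa5 (standard error 0.0905 with all libraries and 0.0434 without both). The calls and shares of this fit depend on that choice and are a description only.

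**Figure D4:**
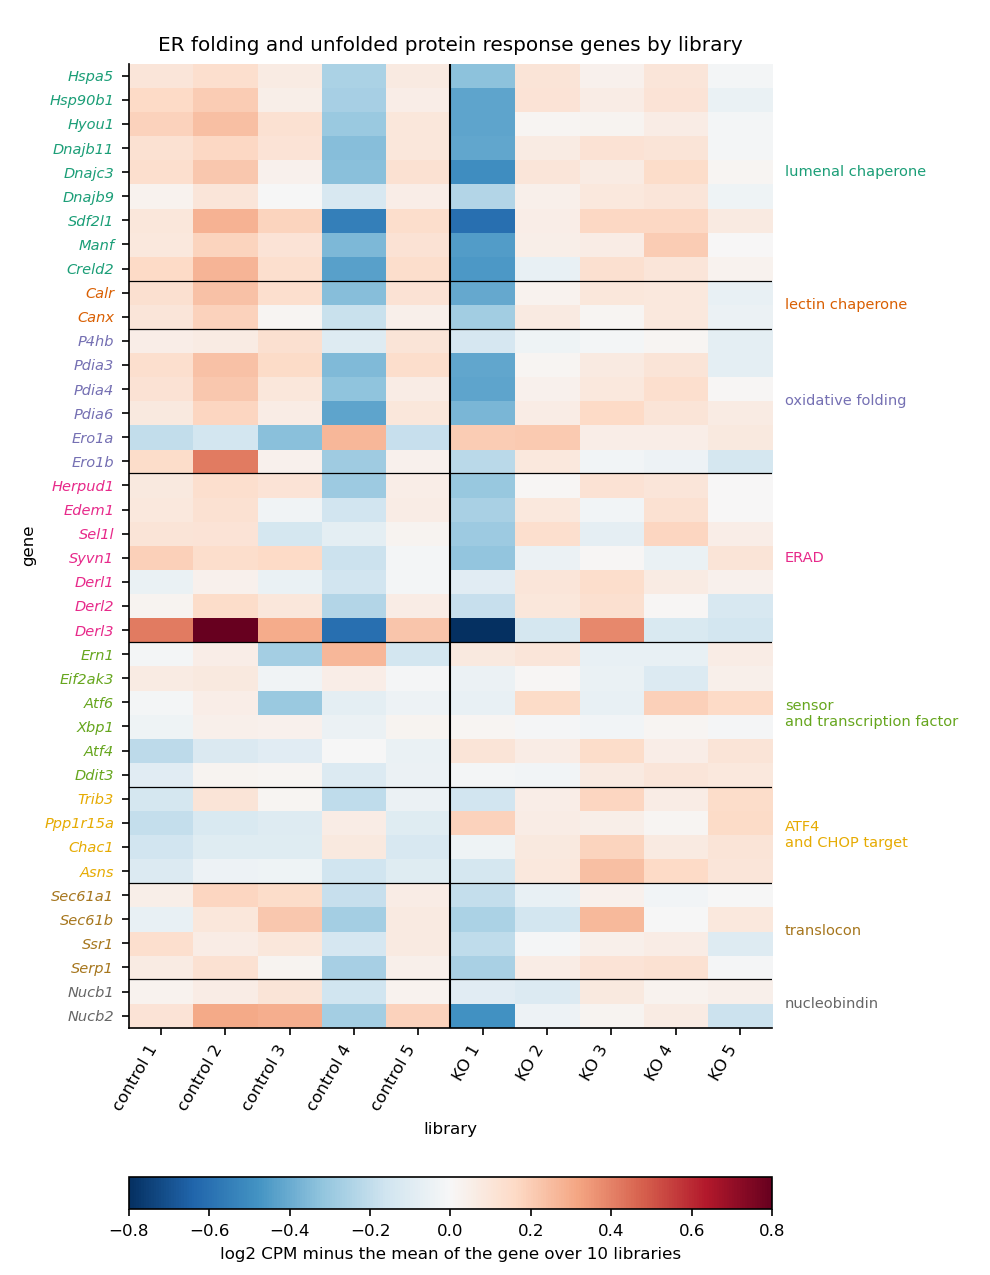
Log2 CPM of each member (rows, grouped by role) in each library (columns), minus the mean of that gene over the 10 libraries; the colour scale ends at 0.8 in either direction. Control 4 and KO 1 are blue for the chaperone, oxidative folding, ERAD and translocon rows except Ero1a, and are near white for most sensor rows.

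Among 6 enzymes of oxidative folding, Ero1a stood apart. It encodes the main ER oxidase of many tissues, a gene also known to respond to hypoxia and CHOP. Ero1a had 734.6, 762.5, 667.4, 1013 and 741.3 CPM in control and 971.3, 973.6, 875.5, 872.3 and 888.0 CPM in KO. Control 4 was the highest of all libraries, and the other 4 controls lay below every KO library. The log2 fold change was 0.23 (standard error 0.0933, 95% interval 0.02 to 0.43, adjusted p = 0.345), and without control 4 it was 0.34 with an adjusted p of 0.00372. Ero1a passed in only this 1 of the 10 fits with a single library left out. Control 4 thus carried the highest Ero1a level beside the lowest chaperone levels among the controls, and KO 1 had a high Ero1a level beside the lowest chaperone levels among the KO libraries. The isoform Ero1b, most used in secretory glands, was low at 13.52 ± 2.36 and 12.18 ± 0.964 CPM (adjusted p = 0.679). The disulfide isomerase P4hb had 831.6, 838.5, 873.3, 745.1 and 859.1 CPM in control and 729.7, 780.5, 792.4, 809.6 and 758.6 CPM in KO. All KO libraries lay below 4 of the 5 controls, and the log2 fold change was -0.10 (95% interval -0.21 to 0.01, adjusted p = 0.459). Its relatives Pdia3, Pdia4 and Pdia6 had log2 fold changes of -0.13, -0.06 and 0.01, each with an interval that includes 0.

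The 7 ERAD members lay between log2 fold changes of -0.45 and 0.097, 0 passed with edgeR, DESeq2 or limma voom, and 0 had an unadjusted p under 0.05 with edgeR. Herpud1, a scaffold of the ERAD ligase complex with both ERSE-II and AARE letters in its promoter, had 308.3, 319.8, 314.2, 238.4 and 302.9 CPM in control and 236.5, 293.2, 316.0, 311.5 and 292.5 CPM in KO (log2 fold change -0.03, 95% interval -0.23 to 0.16). It followed the chaperones with control 4 and KO 1 lowest. The ligase Syvn1 and its partner Sel1l had log2 fold changes of -0.12 and 0.00, and the mannosidase-like Edem1 -0.03. Of the derlins, membrane proteins of the exit channel, Derl1 and Derl2 had 0.10 and -0.04. Derl3, the lowest of them in CPM, ranged from 8.752 to 23.28 CPM in control and 6.151 to 17.37 CPM in KO, a log2 fold change of -0.45 with an interval of -1.003 to 0.102.

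Translocon members had log2 fold changes of -0.10 (Sec61a1), -0.02 (Sec61b), -0.09 (Ssr1) and 0.01 (Serp1), with 0 passing with any of the 3 tools and 0 at an unadjusted p under 0.05 with edgeR. The nucleobindins, calcium-binding proteins of the Golgi and secretory route, had 257.3 ± 17.2 and 253.0 ± 14.4 CPM for Nucb1 and 47.25 ± 7.07 and 39.84 ± 5.70 CPM for Nucb2. The Nucb2 difference was -0.25 (95% interval -0.50 to 0.01, adjusted p = 0.439). It passed, as given above, only in the fit without control 4 and KO 1, where it was -0.25 with an adjusted p of 0.0494.

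Of 34 other ER chaperones and folding enzymes, 33 were tested (Clgn was too low), 0 were higher with any of the 3 tools and 2 were lower, against 1.86% of all tested genes, with 1 higher and 6 lower (18.2%, against 7.46% of all tested genes) at an unadjusted p under 0.05. The genes called were Fkbp10 and Fkbp14, prolyl isomerases of the ER known for folding of collagens. Fkbp10 fell from 56.86 ± 5.40 to 46.34 ± 2.56 CPM (log2 fold change -0.29, standard error 0.0648, adjusted p = 0.0326), and Fkbp14 from 33.28 ± 2.22 to 26.89 ± 2.31 CPM (-0.31, standard error 0.0673, adjusted p = 0.0327). In both, all KO libraries lay below all control libraries, as for 2.66% of tested genes. With 1 library left out, Fkbp10 passed in 3 of 10 fits (without control 2, control 4 or KO 4) and Fkbp14 in 2 of 10 (without control 4 or KO 3), and each shares exon sequence with a gene on the opposite strand, Nt5c3b and Plekha8. The collagen chaperone Serpinh1 had 759.8 ± 121 and 634.4 ± 77.6 CPM (log2 fold change -0.26, adjusted p = 0.371). Serpinh1 passed as lower only in the fit without control 4 and KO 1, where Fkbp9, Fkbp10, Fkbp11 and Fkbp14 also passed. In that fit 353 of 14340 tested genes were lower. Col1a1 and Col3a1 were among the 4 fibroblast markers lower in KO, and whether they and the Fkbp genes share a source was not tested.

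Among 33 genes of translocation, signal peptide removal and N-glycosylation, 22 other ERAD genes and 25 of 26 other UPR regulators tested (Ern2 was too low), 0 passed with edgeR, DESeq2 or limma voom. At an unadjusted p under 0.05, 1 translocation and glycosylation gene was lower (3.03%) and 1 ERAD gene higher (4.55%). Of the UPR regulators, 2 were higher (8%) and 1 lower (4%). Among all tested genes 4.43% were higher and 7.46% lower, or 11.9% in either direction. The lowest p values of the first list were those of Ddost (oligosaccharyltransferase subunit, log2 fold change -0.13) and Ostc (the same complex, -0.14). In the ERAD list they were those of Dnajb12 (cochaperone, 0.11) and Herpud2 (0.06). Among UPR regulators they were those of Mbtps2, the protease that releases ATF6 (0.15), and Creb3l1, an ER-anchored factor known for collagen secretion (-0.30). All KO libraries of Mbtps2 lay above all control libraries, as for 1.31% of tested genes.

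Levels per exon length (TPM, from the counts and the merged exons of GENCODE M21) place the members on one scale. In control cultures Hspa5 was highest at 2859 ± 340.5 TPM, followed by Calr at 1812 ± 283.7 and Hsp90b1 at 1615 ± 221.3 TPM (SD, n = 5), and the spreads of the latter pair overlap. P4hb and Pdia3 were at 954.3 and 950.3 TPM. Ero1a was at 486.8 TPM and Ero1b, the lowest member, at 6.694 TPM. Atf4 stood at 448.9 TPM and Xbp1 at 351.9 TPM, above Ddit3 (256.0 TPM) and well above the sensors Atf6 (49.09 TPM), Eif2ak3 (21.85 TPM) and Ern1 (15.16 TPM). The derlins ordered Derl1 (396.8 TPM), then Derl2 and Derl3 at 29.18 ± 3.309 and 27.07 ± 8.885 TPM, which do not differ beyond their spread in TPM. That closeness depends on the merged exon lengths, 8049 bases for Derl2 and 1993 for Derl3. In CPM the control means were 71.3 and 16.3. In KO the order of these genes was much the same, and the bands of mean ± SD of the groups were apart only for Atf4 (501.6 ± 13.58 TPM in KO) and Ppp1r15a (98.20 ± 5.12 and 109.2 ± 3.546 TPM).

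**Figure D5:**
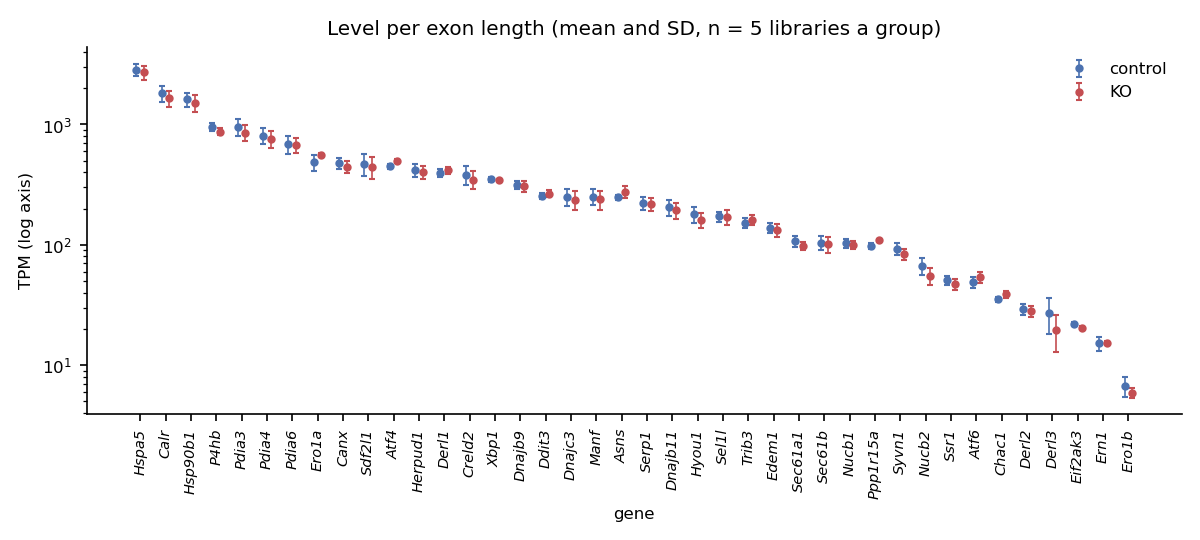
TPM of the 40 members on a log axis, sorted by control level, as mean and SD of 5 control (blue) and 5 KO (red) libraries. The levels run from 2859 TPM for Hspa5 to 6.694 TPM for Ero1b in control, and the bars of the groups overlap except for Atf4 and Ppp1r15a.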

How the data were processed

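The authors prepared RNA-seq libraries from the differentiated cultures with SMARTer and Nextera XT kits, aligned paired-end reads with STAR to mouse GRCm38.p6 (mm10 per the labels), assigned fragments to Ensembl genes with featureCounts, and deposited raw counts for 56748 genes in 10 libraries, neither normalized nor pooled. The strand setting of the counting is not given in the sources used here. All columns belonged to labelled samples. The labels give no separate animal for each library, so p-values measure the spread between these libraries, which may be partly technical. The lowest chi-square per degree of freedom between libraries of a group was 3.52, so none were repeat counts of the same library. This value cannot tell separate animals from separate preparations of the same culture.

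From the counts, edgeR 4.0.16 (R 4.3.3) filtered low genes (filterByExpr, minimum count 10), scaled by TMM and fitted the quasi-likelihood test of KO against control over 14270 genes with Benjamini-Hochberg adjustment at 0.05. The common biological coefficient of variation was 9.35%. Standard errors are the log2 fold change over the square root of F, with 95% intervals from the t distribution. Log2 CPM used a prior count of 2. Exact permutation tests covered all 252 splits and were 2-sided. TPM used GENCODE M21 exon lengths, known for 52073 of the 56748 genes. A second Ddit3 row without counts was left out. Alternatives were DESeq2 1.42.0, limma voom 3.58.1 with quality weights, other size factors, no filter, a minimum count of 50, a replicate block, each library left out, and control 4 with KO 1 left out. The fits were tested on simulated data. At these depths counting error is largest for low genes such as Chac1 and Derl3.

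The members, the other lists and the choice to leave out control 4 with KO 1 were made with earlier results of these data known. Values in every library are given for members with an unadjusted p under 0.05 and for Hspa5, Xbp1, Atf4, Ddit3, Ero1a, P4hb, Herpud1 and Dnajb9. From each other list the genes past the limit, or else the 2 with the lowest p, are named; further genes of those lists were chosen after their values were seen. Promoters are from RefSeq. Protein features were not analysed here. The value of 1 marker gene is not reported here.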

Additional observations from a re-analysis of the deposited data

Results flagged for a closer look

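In groups of 5 libraries, a library was singled out where its gap to the nearest other library exceeded 0.71 of the range of the group (Dixon's critical value). Of 82 groups checked (the 40 members and Fam20c in control and in KO), 17 had such a library, where chance alone gives about 1 in 20 groups, or 4.1. All 17 were control 4 (11, of which 9 were low) or KO 1 (6, all low). Genes of one pathway are not independent, so the 17 are not separate observations.

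In control 4 the low genes and their gaps over the range were Hspa5 (0.816), Dnajb11 (0.835), Sdf2l1 (0.72), Manf (0.795), Creld2 (0.763), Calr (0.764), Pdia3 (0.799), Pdia6 (0.778) and Herpud1 (0.792). Hspa5 was at 3015 CPM there against 3771 to 3942 CPM in the other controls, and Calr at 1196 against 1638 to 1774 CPM. The high genes in control 4 were Ero1a (0.725), at 1013 CPM against 667.4 to 762.5 CPM, and Chac1 (0.767), at 19.58 against 16.68 to 17.35 CPM.

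In KO 1 the low genes were Hyou1 (0.826), Dnajb11 (0.724), Dnajc3 (0.763), Sdf2l1 (0.819), Pdia4 (0.739) and Pdia6 (0.779). Sdf2l1 was at 100.8 CPM there against 158.7 to 171.5 CPM in the other KO libraries.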

How the results depend on the processing

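The count of members called higher, 1, was 2 with DESeq2, 3 with limma voom, 0 without a filter on low counts and 0 with the replicate number as a block, and 0 to 5 with libraries left out (5 without both control 4 and KO 1). The count called lower, 0, was 0 to 1 with libraries left out. At an unadjusted p under 0.05, the 5 higher members ranged from 3 to 8 with libraries left out, and the 0 lower members were 1 with DESeq2, 4 with limma voom, 2 without a filter and 0 to 11 with libraries left out (11 without control 4). Among the other lists, 1 gene called higher became 5 with DESeq2, 6 with limma voom, 2 without a filter and 1 to 8 with libraries left out, and 2 called lower became 0 with the block and 0 to 5 with libraries left out. Over all genes, DESeq2 called 125 higher and 359 lower, limma voom 111 and 347, the block 21 and 193, and leaving out control 4 119 and 323, against 44 and 265.

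Replicate numbers 1 to 5 recur in both groups, but correlations of same-numbered deviations ran from -0.251 to 0.263 and 1 of 5 control libraries was most like the KO library of its number, so no pairing was assumed. In the replicate block fit Atf4 was 0.19 higher on the log2 scale (adjusted p = 0.127). The block fit gave Fkbp10 an adjusted p of 0.107 and Fkbp14 0.074.

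Fold changes near 0 changed sign with libraries left out, and the cause was not tested. The ranges were -0.1044 to 0.02786 for Hspa5, -0.1411 to 0.01261 for Hsp90b1, -0.1356 to 0.02925 for Dnajb11, -0.1426 to 0.03735 for Dnajc3, -0.04703 to 0.03756 for Dnajb9, -0.1747 to 0.06076 for Sdf2l1, -0.1292 to 0.04631 for Manf, -0.1385 to 0.02472 for Pdia4, -0.08169 to 0.08994 for Pdia6, -0.0996 to 0.03434 for Herpud1, -0.06687 to 0.02981 for Edem1, -0.04262 to 0.06875 for Sel1l, -0.09076 to 0.006709 for Derl2, -0.01835 to 0.1167 for Ern1, -0.02035 to 0.003899 for Xbp1, -0.09205 to 0.0378 for Sec61b, -0.04805 to 0.07138 for Serp1 and -0.06128 to 0.006559 for Nucb1. With limma voom Pdia6 was -0.02759, Sel1l -0.001734 and Serp1 -0.01755. Sel1l was -0.004734 with upper quartile scaling, -0.003237 with a minimum count of 50 and -0.004559 with the block. The median of the members was 0.02855 without KO 1 and below 0 under the other alternatives. Fam20c stayed lower and past the limit throughout.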
